A study of Zea mays with 36 samples.

Results

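Alpha and beta tubulin genes of maize with a named probe were followed in shoot apical meristems of rgd2-R mutant and non-mutant seedlings. A probe was taken as a member where the platform annotation gave it a gene symbol or synonym of tua (alpha tubulin) or tub (beta tubulin) followed by a number. The rule used names only, and no measured value, though the members were chosen with earlier results of these data known. It found 67 probes of 35200, which stand for 10 of the 766 genes named on the arrays: the alpha tubulins tua1, tua3, tua4 and tua6, and the beta tubulins tub2, tub3, tub4, tub5, tub6 and tub7. The SAM1 array holds 51 of these probes among 19200 (28 of 1 alpha gene, 22 of 1 beta gene and 1 annotated to both tua1 and tua4). The SAM3 array holds 16 among 16000 (9 alpha and 7 beta), and 7 of the genes are on both arrays. The gene table used here lists 14 tubulin genes by these names, of which 9 have a probe by gene ID. There tua4 has another ID, and tub1, tua2, tua5 and a separate tub8 have no named probe. The alpha and beta classes below are therefore part of the family.

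Alpha and beta tubulin join as a dimer, and dimers stack into microtubules. In plant cells microtubules lie under the plasma membrane, where they guide the enzymes that spin cellulose into the wall, and they build the preprophase band, the spindle and the phragmoplast of a dividing cell. Each subunit is encoded by a small gene family, whose members are called isotypes and are much alike in their coding sequence. The meristem is a dome of small dividing cells, so both uses of microtubules take place in it.

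The rgd2-R group was seedlings carrying the rgd2-R mutant allele of ragged seedling2, a gene of the ARGONAUTE family that acts in small RNA pathways, after 5 generations of introgression into the Mo17 inbred. The non-mutant group grew under the same controlled condition, and the labels do not give its line any further. At 14 days after germination apex cells were taken by laser microdissection, and their RNA was amplified in 2 rounds. Each hybridisation held RNA of both genotypes in different dyes, with 6 biological replicates per array, and the dyes were exchanged between replicates 1 to 3 (rgd2-R labelled with Cy3) and replicates 4 to 6 (rgd2-R labelled with Cy5). A replicate has 3 scanner readings, named low, mid and high, and their mean was used. A log2 ratio below is always rgd2-R over non-mutant, so a value above 0 means more signal in rgd2-R.

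On SAM1 the readings of a replicate correlated with each other over all probes at 0.651 to 0.810, except in replicate 5, where they did at 0.248 to 0.272. Replicate 5 also correlated at -0.094 with replicate 1 and -0.176 with replicate 2, and estimates that change by over 1.5 times without it are given beside the gene. The median signal of a reading ran from 301 to 1948 units in Cy3 and from 101 to 554 in Cy5 on SAM1, and from 143 to 1847 and from 46.5 to 1002 on SAM3. Of the meristem markers, 1 of 2 on SAM1 (kn1) and 2 of 4 on SAM3 (kn1 and lg3) had a probe at 2 times local background or more in both dyes in every reading. Over all single probes, 24.5% on SAM1 and 36.2% on SAM3 were at that level. The brightest kn1 probe on SAM1 stood at 32.0 times background in Cy3 and 47.4 times in Cy5, lg3 there at 2.14 and 3.23 times, and knox8 on SAM3 at 1.49 and 2.04 times. Of the photosynthetic markers, 1 of 4 genes on SAM1 (lhcb5) and 0 of 3 on SAM3 had such a probe, and of the epidermal markers 2 of 3 (ocl1 and ocl4) and 1 of 2 (ocl1). Both vascular markers, sh1 and sus1, did so on both arrays, as did 3 of 3 leaf primordium genes of the YABBY family on SAM1 and 4 of 4 on SAM3. The ratios of those YABBY genes ran from 0.14 (yab14, SE 0.20) to 0.40 (yab9, SE 0.25) on SAM1. On SAM3 with the dyes as labelled they ran from 0.01 (yabby15, SE 0.19) to 0.33 (yab14, SE 0.17). Their smallest limma adjusted p was 0.547 on SAM1 and 0.830 on SAM3. yabby15 was -0.01 with the low and mid readings of SAM3 replicate 3 turned in direction, as set out below. With replicate 2 turned as well it was -0.19. The part of the YABBY genes in the tubulin values was not tested. In material of this kind fewer cells of a type and less RNA per cell cannot be told apart.

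The question on each array was whether tubulin RNA differed between rgd2-R and non-mutant meristems. On SAM1, 0 of the 10 tubulin genes passed a limma adjusted p of 0.05, and the smallest was 0.302. No row of the gene fit passed on that array (0%). At an unadjusted p under 0.05, tub5 was higher and tub7 was lower in rgd2-R, in a fit where 6.57% of all rows were higher and 7.53% lower by that rule. The 10 estimates lay between -0.15 and 0.17, and their 95% intervals together covered -0.32 to 0.33, which is 0.800-fold to 1.26-fold. Of the 10 genes, 7 lay below 0, against 48.6% of all rows, and 0 had 1 sign in 6 of 6 replicates, against 6.59%. Their median was -0.08, against 0.003 for all rows.

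Among the alpha tubulins on SAM1, tua3 (9 probes) gave 0.02, 0.42, 0.10, -0.11, 0.14 and -0.10 in replicates 1 to 6. Its estimate was 0.08 (SE 0.07, adjusted p = 0.698 by limma), with values on both sides of 0, and was 0.02 without replicate 2, 0.04 without replicate 5 and 0.12 without replicate 1. tua4 (12 probes) gave -0.08, 0.28, -0.19, -0.34, -0.03 and -0.30, with an estimate of -0.11 (SE 0.08, limma adjusted p = 0.589). Only replicate 2 was above 0, and the estimate was -0.18 without it and -0.06 without replicate 3. tua1 (5 probes) gave 0.28, 0.60, 0.01, -0.24, -0.04 and -0.26, with an estimate of 0.06 (SE 0.08, limma adjusted p = 0.818). All 3 replicates with rgd2-R in Cy3 were above 0 and all 3 with rgd2-R in Cy5 below it, and without replicate 2 the estimate was -0.02. Without replicate 3 it was 0.13 and without replicate 5 0.02. tua6 (2 probes) gave an estimate of -0.06 (SE 0.10, limma adjusted p = 0.849), and 0.04 without replicate 3. Without any other 1 replicate it ran from -0.15 (without replicate 2) to -0.02 (without replicate 6).

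Among the beta tubulins on SAM1, tub5 (9 probes) gave 0.11, 0.13, 0.50, -0.01, 0.08 and 0.20. Its estimate was 0.17 (SE 0.07, 1.12-fold, unadjusted p = 0.0454, limma adjusted p = 0.340), and it was higher in 5 of 6 replicates. Replicate 3 was the highest, and without it the estimate was 0.10. tub7 (5 probes) gave -0.05, 0.18, -0.10, -0.26, -0.28 and -0.37, with an estimate of -0.15 (SE 0.06, 0.903-fold, unadjusted p = 0.0336, limma adjusted p = 0.302). It was lower in 5 of 6 replicates, and its mean was -0.30 in the replicates with rgd2-R in Cy5 and 0.01 in those with rgd2-R in Cy3. tub6 (4 probes) gave -0.36, -0.04, 0.05, -0.17, -0.04 and -0.22, with an estimate of -0.13 (SE 0.07, limma adjusted p = 0.442). It was lower in 5 of 6 replicates, at similar means in both dye orientations (-0.12 with rgd2-R in Cy3 and -0.14 in Cy5), and the estimate was -0.07 without replicate 1. The other beta tubulins gave -0.01 for tub2 (2 probes, SE 0.07, limma adjusted p = 0.968), -0.10 for tub3 (1 probe, SE 0.09, limma adjusted p = 0.714) and -0.11 for tub4 (1 probe, SE 0.09, limma adjusted p = 0.677). tub2 ran from -0.07 (without replicate 5) to 0.04 (without replicate 4) with 1 replicate left out. tub3 was -0.005 without replicate 2 and -0.04 without replicate 6, and tub4 was -0.01 without replicate 5, -0.06 without replicate 2 and -0.17 without replicate 4.

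**Figure D1:**
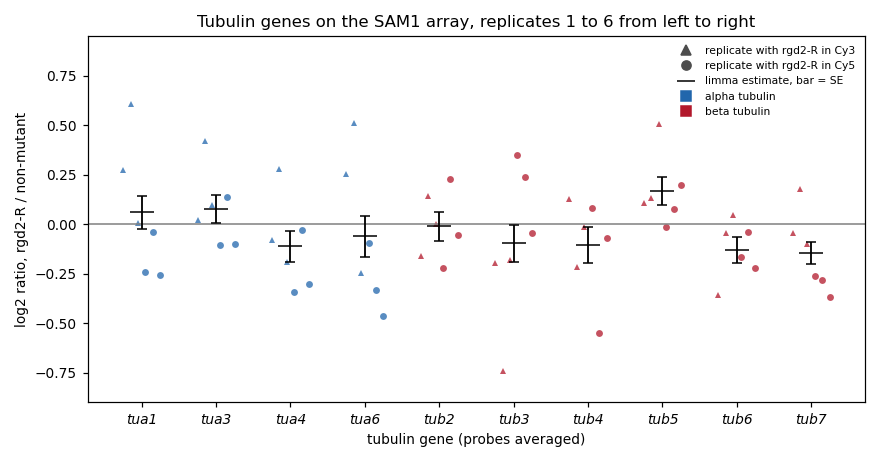
Log2 ratio of rgd2-R over non-mutant for the 10 tubulin genes on SAM1. Small symbols are the replicates in order from 1 to 6 (triangles with rgd2-R in Cy3, circles in Cy5), and the black mark and bar are the limma estimate and its SE. Estimates lie between -0.15 (tub7) and 0.17 (tub5), and in every gene the replicates fall on both sides of 0.

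The dye orientation moved with several of these values. The dye term had an unadjusted p under 0.05 for 3 of the 10 genes (tua1, tub3 and tub7), against 10.2% of all gene rows. tub3 gave -0.20, -0.74 and -0.18 with rgd2-R in Cy3 and 0.35, 0.24 and -0.05 with rgd2-R in Cy5. By single probes the dye term was under that threshold in 12 of 51, against 10.2% of all probes, and in 11 of the 12 the ratio was lower with rgd2-R in Cy5. The fit estimates genotype and dye together, so the standard errors do not contain this difference. Each orientation holds 3 replicates, so the estimates are the same without the dye term, at 0.06 for tua1 and -0.15 for tub7.

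Channel signals were normalised log2 values per genotype, averaged over the probes of a gene. They are given pairwise for a gene, since signals of different probes do not rank as abundance. On SAM1 tua4 stood at 11.28 ± 0.13 in rgd2-R and 11.39 ± 0.33 in non-mutant meristems (SD, n = 6), and tua3 at 10.98 ± 0.19 in rgd2-R and 10.90 ± 0.20 in non-mutant meristems. tub5 stood at 11.19 ± 0.17 in rgd2-R and 11.02 ± 0.24 in non-mutant meristems, and tub7 at 9.44 ± 0.27 in rgd2-R and 9.59 ± 0.20 in non-mutant meristems. For each of these 4 genes the genotypes' means differed by less than the larger SD. Both genotypes share each hybridisation, so these SDs include differences between hybridisations and are not the spread of the paired ratio. The median over all SAM1 probes was 8.79, and tub2 lay below it at 8.21 in rgd2-R and 8.23 in non-mutant meristems. Of the 51 SAM1 probes, 32 were at 2 times background or more in both dyes in all readings, as were 11 of 16 on SAM3. Over all probes the share was 24.5% on SAM1 and 36.2% on SAM3. Probe 8108 of tua1 and probe 16181 of tub2 on SAM1, and probe 12938 of tua4 on SAM3, reached that level in 0 readings. The other tub2 probe on SAM1 (6113) did so in 10 readings, and those on SAM3 in 10 (106) and 8 (6066). The tub2 ratios near 0 therefore rest on weak signal. A saturated reading was found in 1 tubulin probe, 17753 of tua4.

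**Figure D2:**
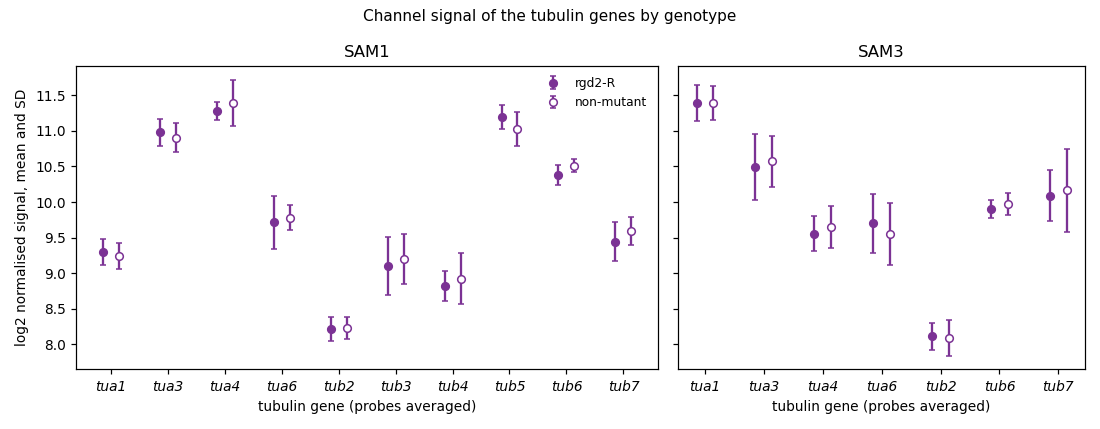
Normalised log2 signal of each tubulin gene in rgd2-R (filled) and non-mutant (open) meristems, mean and SD over 6 replicates, on SAM1 (left) and SAM3 (right). The pairs overlap within their SDs, as for tub5 on SAM1 at 11.19 in rgd2-R and 11.02 in non-mutant meristems. The SDs include differences between hybridisations and are not the spread of the paired ratio.

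The single probes show how far a gene's spots shared its value. At an unadjusted p under 0.05, 4 tubulin probes of SAM1 were higher in rgd2-R and 5 lower, in a fit where 6.68% of probes were higher and 8.12% lower by that rule. This is 17.6% of the 51. None passed the adjusted threshold (0% of all probes), and the smallest limma adjusted p among them was 0.152. The ratio had the same sign in 6 of 6 replicates in 4 tubulin probes (7.84%), against 6.94% of all probes. Both shares lie near those of the whole array.

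All 9 tub5 probes lay above 0, against 51.2% of all probes, from 0.06 (probe 12046) to 0.28 (probe 6815). Probe 6815 gave 0.37, 0.005, 0.68, 0.08, 0.14 and 0.39 in replicates 1 to 6 (SE 0.09, limma adjusted p = 0.232). Probes 6436 (0.22) and 12512 (0.20) were also under an unadjusted p of 0.05. All 5 tub7 probes lay below 0, against 48.8% of all probes, from -0.23 (probe 12502) to -0.05 (probe 12063). Probes 12502, 3367 (-0.21) and 7627 (-0.21) were under an unadjusted p of 0.05, and each was lower in 5 of 6 replicates. Probes of a gene are spots on the same arrays and share its RNA, so such a run of signs is no replication.

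The tub6 probes parted. Probe 6424 gave -0.48, -0.50, -0.07, -0.42, -0.04 and -0.44, an estimate of -0.33 (SE 0.08, limma adjusted p = 0.152), and was lower in 6 of 6 replicates, while probe 10976 gave 0.07 (SE 0.07). The tua3 probes were all above 0, from 0.03 (probe 988) to 0.14 (probe 7759), and 11 of 12 tua4 probes were below it, from -0.21 (probe 10485) to 0.03 (probe 1662). Probe 14932 of tua4 gave -0.21 (SE 0.09) at an unadjusted p under 0.05. Within tua1, probe 6066 gave 0.43, 0.44, 0.21, 0.01, 0.10 and 0.38, an estimate of 0.26 (SE 0.07, limma adjusted p = 0.152) and was higher in 6 of 6, while probe 9744 was lowest at -0.07 (SE 0.14). The tua6 probes gave -0.004 (15477) and -0.12 (19083), and the tub2 probes -0.01 (6113 and 16181). The probe annotated to both tua1 and tua4 gave -0.15 (SE 0.13). How far a probe also binds RNA of another tubulin isotype was not tested.

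**Figure D3:**
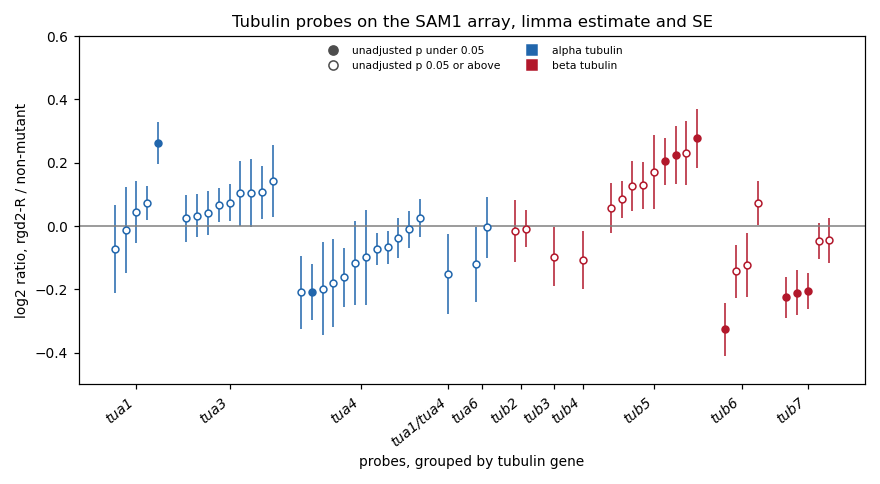
Log2 ratio of rgd2-R over non-mutant for the 51 tubulin probes on SAM1, sorted within each gene, with the SE of the limma fit. Filled points have an unadjusted p under 0.05. All 9 tub5 probes lie above 0 and all 5 tub7 probes below it, and tub6 spans -0.33 to 0.07.

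Isotypes of a class were set against each other within each replicate, as differences of log2 ratios. These pairs were chosen after their values were seen and are a description. tub5 minus tub6 was above 0 in 6 of 6 SAM1 replicates, at 0.30 ± 0.17 (SD, n = 6). tub5 minus tub7 was 0.31 ± 0.25 and above 0 in 5 of 6. tua3 minus tua4 was 0.19 ± 0.07 on SAM1, above 0 in 6 of 6 with a range of 0.10 to 0.29. On SAM3 with the dyes as labelled it was 0.01 ± 0.12, where 4 of 6 were above 0. tub5 has no probe on SAM3.

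Alpha and beta tubulins as classes did not separate beyond the spread of replicates. The mean of the 4 alpha genes minus the mean of the 6 beta genes on SAM1 was 0.21, 0.54, -0.13, -0.16, -0.01 and -0.19 in replicates 1 to 6. Its mean was 0.04 ± 0.28 (SD, n = 6), with 2 of 6 replicates above 0. With both dye orientations weighted equally, it was -0.04 without replicate 2. On SAM3 the difference of 4 alpha and 3 beta genes was 0.03 ± 0.18 with the dyes as labelled. Without replicate 3 its mean was 0.01, and -0.01 with both dye orientations weighted equally. On SAM1 the mean of the beta genes was -0.05 ± 0.05, and that of the alpha genes -0.01 ± 0.26. Single beta genes there had SDs of 0.15 (tub6) to 0.39 (tub3), and single alpha genes of 0.19 (tua3) to 0.37 (tua6). On SAM3 with the dyes as labelled the beta mean was -0.04 ± 0.32 and the alpha mean -0.01 ± 0.39.

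In replicate 3 of SAM3 the low and mid readings ran against the high reading over all probes, at r = -0.911 and -0.909, while low and mid correlated at 0.861. Within the other SAM3 replicates the readings correlated at 0.454 (replicate 4) to 0.835 (replicate 6). The tubulins carried the same split, with means over the 7 genes of 1.04 in the low, 1.04 in the mid and -1.06 in the high reading. In 34 of 36 readings the Cy3 median signal was above the Cy5 median, and the other 2 were these low and mid readings. The averaged replicate 3 also correlated at -0.544 with replicate 1, which had the same dye orientation. Replicate 2 correlated at -0.242 with replicate 1, -0.218 with replicate 4 and -0.157 with replicate 6. With replicates 3 and 5 it did at 0.305 and 0.017. Unlike replicate 3, it had no split between its readings, which correlated at 0.526 to 0.567. The direction of replicates 2 and 3 is therefore not settled. SAM3 values are given with the dyes as labelled. The range and sign of the gene estimates follow without replicate 3 and with readings turned, and other values with readings turned where stated. Single probes are given with the dyes as labelled only.

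**Figure D4:**
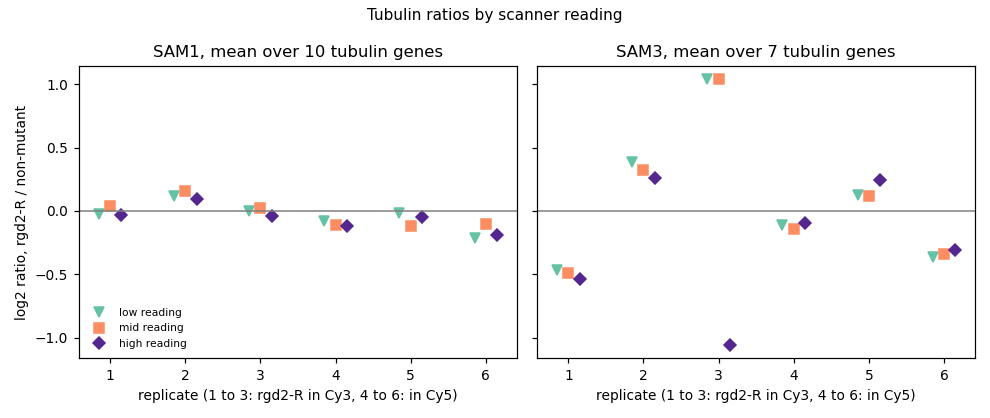
Mean log2 ratio of rgd2-R over non-mutant across the tubulin genes in the low, mid and high reading of each replicate, on SAM1 (10 genes, left) and SAM3 (7 genes, right). The 3 readings lie close together except in SAM3 replicate 3, at 1.04, 1.04 and -1.06.

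With the dyes as labelled, 0 of 7 tubulin genes on SAM3 had an unadjusted p under 0.05 (6.52% of all gene rows) and 0 of 16 probes did (6.58% of all probes). By limma adjusted p none passed among genes or probes (0% of all), and the smallest for a tubulin gene was 0.928. Estimates ran from -0.09 to 0.15, with 5 of 7 below 0, against 51.5% of all rows. The 95% intervals together covered -0.54 to 0.45, wider than on SAM1. They covered -1.13 to 0.43 with the low and mid readings of replicate 3 turned, and -0.59 to 0.82 with its high reading turned. With replicate 2 turned along with those low and mid readings they covered -1.03 to 0.12.

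tua1 (3 probes) gave -0.63, 0.18, 0.36, 0.19, 0.17 and -0.29 in SAM3 replicates 1 to 6, with an estimate of -0.002 (SE 0.14, limma adjusted p = 1.00). tua4 (3 probes) gave -0.74, 0.17, 0.33, -0.10, 0.14 and -0.36, with an estimate of -0.09 (SE 0.15, limma adjusted p = 0.975). tua3 (2 probes) gave -0.89, 0.18, 0.34, 0.01, 0.32 and -0.46, with an estimate of -0.08 (SE 0.18, limma adjusted p = 0.984). Its replicate 2 held 0.68, -0.07 and -0.06 in the low, mid and high reading. In all 3 of these alpha tubulins replicates 1 and 6 were the lowest. Among the beta tubulins, tub7 (2 probes) gave -0.69, 0.81, 0.43, -0.11, -0.09 and -0.78, with an estimate of -0.07 (SE 0.20, limma adjusted p = 0.990). tub6 (3 probes) gave -0.33, 0.15, 0.20, -0.20, 0.05 and -0.28, with an estimate of -0.07 (SE 0.09, limma adjusted p = 0.965). tub2 (2 probes) gave -0.05, 0.15, 0.19, -0.46, 0.21 and 0.10, with an estimate of 0.02 (SE 0.10, limma adjusted p = 0.995). Its replicate 5 held -0.04, -0.07 and 0.72 in the low, mid and high reading. tua6 (1 probe, 3196) had the highest estimate at 0.15 (SE 0.13, limma adjusted p = 0.928). In every one of these genes the replicates fell on both sides of 0.

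By single probes on SAM3, those of tua1 ran from -0.07 (probe 14698) to 0.03 (probe 953), those of tua3 were -0.19 (probe 9931) and 0.02 (probe 51), and those of tua4 ran from -0.16 (probe 6268) to -0.01 (probe 12938). The tub2 probes gave 0.15 (probe 106) and -0.11 (probe 6066), the tub6 probes -0.14 (probe 4371) to 0.03 (probe 14542), and the tub7 probes -0.09 (probe 3567) and -0.06 (probe 5589). Probe 51 of tua3 carries the same expressed sequence tag as probe 367 on SAM1. That tag gave -0.83, 0.26, 0.48, 0.16, 0.33 and -0.26 on SAM3 and 0.09, 0.55, 0.02, -0.09, 0.18 and -0.10 on SAM1. It was thus spread over 1.31 log2 units on SAM3 and 0.648 on SAM1.

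The sign of the SAM3 tubulin estimates followed the setting for replicate 3. With its low and mid readings turned, 7 of 7 genes lay below 0 (48.7% of all rows), from -0.40 (tub7) to -0.09 (tub2). With its high reading turned in their place, 7 of 7 lay above 0 (45.4% of all rows), from 0.02 (tua4) to 0.27 (tua6). Without replicate 3 they ran from -0.20 (tua3) to 0.10 (tua6), with tua6 alone above 0. Without replicate 1, 7 of 7 were above 0, from 0.02 (tub6) to 0.27 (tua6).

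With replicate 2 turned along with the low and mid readings of replicate 3, 7 of 7 were below 0 (50.6% of all rows), from -0.67 (tub7) to -0.14 (tub2). Here tua3, tua4, tub6 and tub7 had an unadjusted p under 0.05. By that rule 16.7% of all rows changed in either direction and 8.47% were lower. The smallest limma adjusted p was 0.193, for tub7, which was lower in 6 of 6 replicates. In that setting 0.013% of gene rows passed the adjusted threshold, with no tubulin among them. The turning was chosen from these same values, and this result supports no direction. Alpha minus beta on SAM3 was -0.02 with the low and mid readings of replicate 3 turned. It was 0.04 with its high reading turned and 0.01 with replicates 2 and 3 turned. In the same order tua3 minus tua4 was -0.01, 0.03 and -0.01, above 0 in 3, 4 and 2 of 6 replicates.

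**Figure D5:**
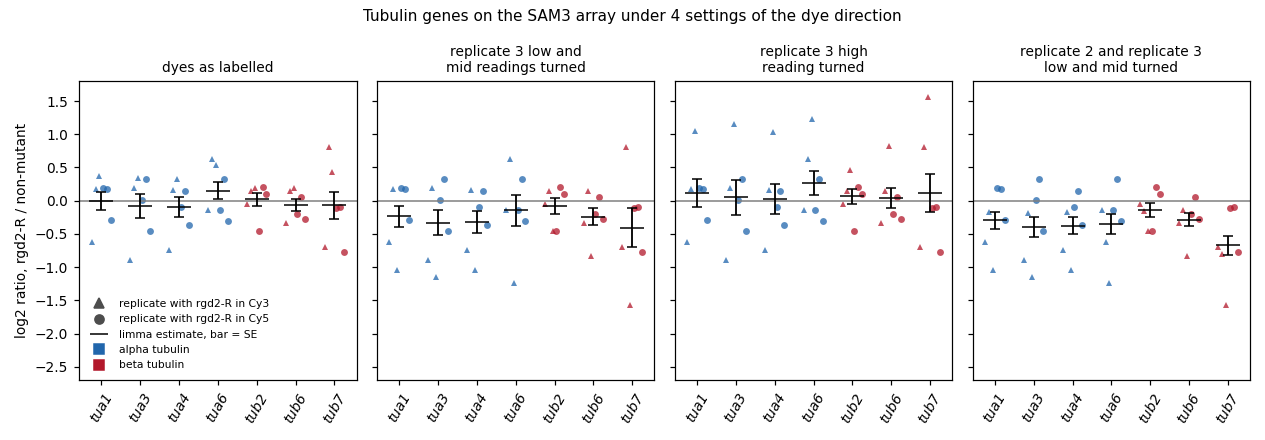
Log2 ratio of rgd2-R over non-mutant for the 7 tubulin genes on SAM3 under 4 settings of the dye direction, with symbols as for SAM1 (triangles with rgd2-R in Cy3, circles in Cy5, black mark and bar the limma estimate and SE). The 7 estimates lie on both sides of 0 with the dyes as labelled, below 0 with the low and mid readings of replicate 3 turned, and above 0 with its high reading turned.

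Other genes of the cytoskeleton, the wall and the cell cycle were set beside the tubulins. On SAM1, 5 microtubule and kinesin genes had a median ratio of -0.02, with 2 above 0. kin4, a kinesin, gave 0.27 (SE 0.09, limma adjusted p = 0.265) and kin9, another kinesin, gave -0.04 (SE 0.05). tubg1, gamma tubulin, which seeds new microtubules, gave -0.02 (SE 0.08). The 5 actin cytoskeleton genes had a median of -0.05, with 2 above 0. Of these, abp3, an actin-depolymerising factor, gave -0.18 (SE 0.11) and pro4, a profilin, gave -0.09 (SE 0.08).

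The 7 cellulose synthase genes on SAM1 had a median of -0.08, with 1 above 0. That was cesa2 at 0.15 (SE 0.06, limma adjusted p = 0.303), and cesa3 gave -0.17 (SE 0.07). The 8 cell cycle and replication genes had a median of 0.05, with 6 above 0, among them the replication clamp pcna1 at 0.22 (SE 0.09, limma adjusted p = 0.340) and the helicase subunit mcm6 at 0.10 (SE 0.06). None of the 25 genes of these lists on SAM1 passed the adjusted threshold. At an unadjusted p under 0.05, 3 (kin4, cesa2 and pcna1) were higher and 0 lower, against 6.57% and 7.53% of all rows. The median over all rows was 0.003, and 48.6% of rows lay below 0.

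On SAM3 with the dyes as labelled, none of the 30 genes of these lists passed, and 4 had an unadjusted p under 0.05, against 6.52% of all rows. That count was 0 with the low and mid readings of replicate 3 turned (7.33% of all rows) and 4 with its high reading turned (4.31%). With replicates 2 and 3 turned 4 other genes were under that threshold (abp3, myo1, pro4 and cesa1, all lower), against 16.7% of all rows. brk1, of the actin cytoskeleton list, gave -0.28 (SE 0.07, limma adjusted p = 0.561) and was lower in 6 of 6. cesa5 gave -0.27 (SE 0.08), rbr2, of the retinoblastoma-related family, gave -0.25 (SE 0.09), and pcna2 gave 0.19 (SE 0.06). The ratios of brk1, cesa5, rbr2 and pcna2 were -0.16, -0.18, -0.16 and 0.04 with the low and mid readings of replicate 3 turned, and -0.33, -0.31, -0.29 and 0.29 with its high reading turned. With replicates 2 and 3 turned they were -0.14, -0.10, -0.003 and -0.01. The other members with the smallest p of their lists were kin4 at 0.08 (SE 0.05), kin13 at 0.13 (SE 0.09), pro5 at -0.05 (SE 0.06) and cesa1 at -0.17 (SE 0.10). The 8 microtubule and kinesin genes had a median of 0.07, with 5 above 0, and 5 of 5 actin genes were below 0, with a median of -0.05. The 7 cellulose synthase genes had a median of -0.04, with 3 above 0. For the 10 cell cycle and replication genes it was 0.02, with 6 above 0. Of all rows 51.5% lay below 0. With readings turned the microtubule and kinesin median ran from 0.05 to 0.08. The cellulose synthase median then ran from -0.06 to -0.01 and the cell cycle median from 0.02 to 0.08. The actin median was -0.16 with the low and mid readings of replicate 3 turned (5 of 5 below 0), 0.01 with its high reading turned (4 of 5 above 0) and -0.24 with replicates 2 and 3 turned (5 of 5 below 0).

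The named genes most like the mean of the tubulin genes over the 6 SAM1 replicates were pro5, a profilin that binds actin monomers (Pearson r = 0.973), arpp3, also listed as rpp3a (r = 0.972), and cl122_1, also listed as sir (r = 0.963), of 573 genes compared. On SAM3 with the dyes as labelled they were his2b5 (r = 0.969), abp3 (r = 0.968) and lbl1 (r = 0.962), of 591. These correlations are over 6 points that share libraries and dye orientation, and they describe these arrays only. The closest 3 on SAM3 moved with the setting. They were abp3, cpi2 and lbl1 with the low and mid readings of replicate 3 turned (r = 0.988, 0.987 and 0.975), and abp3, Sod4A and gst18 with its high reading turned (r = 0.990, 0.982 and 0.978). With replicates 2 and 3 turned they were GAPC2, pro4 and pdh2 (r = 0.995, 0.966 and 0.963).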

How the data were processed

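The authors deposited uncorrected scanner intensity values, a signal and a background for every spot in each dye, and background-corrected, normalised log ratios for each reading, per the file headers. The methods behind the ratios are not given in the sources. The natural log base was read from the deposited ratios, whose spread over bright spots was 0.917 of that of the natural log of background-subtracted signal (median of 36 readings, range 0.696 to 1.00). The authors' value table runs as non-mutant over rgd2-R, with column medians of -0.08 to 0.04.

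Here mean signal and background were corrected with normexp (offset 50) and loess-normalised array by array with limma 3.58.1 (R 4.3.3), and each replicate's 3 readings were averaged. Genotype and dye terms were fitted per array with lmFit and eBayes (4 residual degrees of freedom), and p-values are two-sided, adjusted by Benjamini-Hochberg over all rows at 0.05. In the gene fit the probes of a gene were averaged, and each spot without a single gene name stayed as its own row. The model was tested on simulated data. The number of arrays limits the precision. Channel signals were further scaled by Aquantile.

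Names came from the platform annotation. On SAM1 1800 probes had 1 gene, 23 several and 17377 none here, and on SAM3 1159, 1 and 14840. The gene ID given for tua4 is not in the gene table used here, where tua4 has another ID, and tub5 also bears the synonym tub8. No sequence or genome was used. The members, lists and alternatives were chosen with earlier results of these data known. Every tubulin gene is named with its estimate. Replicate values are given for genes with the 3 most probes of their class, an unadjusted p under 0.05 or 1 sign in all replicates. Probes are named where p is under 0.05 or where they are the highest or lowest of a gene. From each list the 2 genes with the smallest p are named, with tubg1 added after its value was seen. Alternatives covered background correction, normalisation, readings, saturation, dim probes, the dye term, the authors' table, probe averaging, left-out replicates and dye direction on SAM3.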

Additional observations from a re-analysis of the deposited data

Results flagged for a closer look

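Of 98 sets of 6 replicate values examined (tubulin genes, class means, isotype differences and single probes), 1 had a replicate far from the others. Probe 7759 of tua3 gave 0.78 in replicate 2 on SAM1, while the next highest replicate was 0.16. About 5% of such sets are expected to be marked by chance.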

How the results depend on the processing

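No tubulin gene passed the adjusted threshold under any alternative on either array. Over all SAM1 probes, where 0 passed, the count was 195 with no background correction, 11 with median centring, 36 with the mid reading alone, 42 with the dimmest 25% of probes left out and 1 with the authors' value table. Leaving out 1 replicate gave 0 to 2 (2 without replicate 2). The cause was not tested. On SAM3 2 probes passed with replicates 2 and 3 turned and 0 otherwise. On SAM1 tub5 (0.09 to 0.20), tua3, tua4, tub4, tub6 and tub7 (-0.26 to -0.12) kept their sign in all 16 alternatives that change any tubulin estimate. Aquantile scaling and the fit with no dye term left every tubulin estimate as it was, as did leaving out saturated readings on SAM3. Estimates of tua1, tua6, tub2 and tub3 changed sign in 1, 1, 5 and 1 of them. The alpha minus beta difference on SAM1, with both dye orientations weighted equally, ran from -0.04 (without replicate 2) to 0.13 (without replicate 3). On SAM3 every gene changed sign in at least 3 of 18 such alternatives. The setting with the high reading of replicate 3 turned was chosen after seeing the data. Each ratio pairs both genotypes within a hybridisation, so no further replicate block was fitted.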
